A study of Mus musculus with 6 samples.

Results

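The 10 macrophage and microglia-type marker genes C1qa, C1qb, C1qc, Csf1r, Cx3cr1, Adgre1, Mrc1, Ctss, Laptm5 and Tyrobp were examined in RNA of the developing soft palate, the muscular rear part of the palate. They were chosen by name as markers of tissue macrophages, with earlier results of these data known. All 10 were found among the 21938 genes of the deposited table. The libraries came from mouse embryos at E14.0, 3 of them mutant (replicates 5, 6 and 7, genotype Osr2-Cre;b-cateninfl/fl) and 3 control (replicates 1, 2 and 3). The control embryos are described as b-cateninfl/fl in the protocol and as wild type in the genotype field, so mutants and controls share the floxed allele if the protocol is followed, and the Cre is named for the mutants alone. Osr2-Cre is a recombinase driven from Osr2, a gene of the palatal mesenchyme, and it removes the floxed part of the gene for β-catenin, Ctnnb1. Whether a library holds 1 embryo or a pool is not stated, so each p-value measures the spread between these libraries, which may be partly technical. Values are in CPM, a gene's reads scaled to a common library total.

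Macrophages of embryonic tissue descend from progenitors of the yolk sac and the fetal liver, not from the palatal mesenchyme. They clear dying cells and debris, release signals that shape tissue, and depend on the receptor Csf1r for survival. Microglia are the macrophages of the brain, and most of the genes that mark them are shared with macrophages elsewhere. The libraries were made from whole tissue, in which macrophages are a minority. In such bulk RNA, fewer macrophages and less RNA per macrophage cannot be told apart.

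The step between low values put the depth at about 10018627 to 15089314 counted reads a library. A count of 0 then allows a level of up to 0.199 CPM in the deepest library and 0.299 CPM in the shallowest (3 reads, counting error only). Ctnnb1 averaged 599.8 ± 29.1 CPM in mutants and 718.1 ± 59.0 CPM in controls (SD, n = 3 each; log2 change -0.26, adjusted p = 0.183 in limma). Osr2, the locus that drives the Cre, averaged 16.1 ± 3.2 CPM in mutants and 46.9 ± 11.2 CPM in controls (log2 change -1.47, adjusted p = 0.0285 in limma). Across all genes, 105 passed the threshold of 0.05 on the adjusted p, a share of 0.479%, with 0.283% lower and 0.196% higher in mutants. That count was 452 without control replicate 2, 2 without mutant replicate 7 and 0 without any other single library.

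The labelled tissue was checked against its markers. Mesenchymal genes were abundant, with Col1a1, a chain of type I collagen, at 2851 ± 700.1 CPM in mutants and 2902 ± 656.1 CPM in controls, and Prrx1, a homeobox factor of craniofacial mesenchyme, at 312.1 ± 61.2 CPM in mutants and 339.2 ± 37.8 CPM in controls. Against that background the macrophage markers were low. The 10 markers together summed to 95 to 119.4 CPM in mutant libraries and to 126.3 to 140.2 CPM in control libraries. Tyrobp, the rarest by CPM, rested on about 13 to 28 reads per library, C1qb on 39 to 89, and Mrc1, the most abundant by CPM, on 520 to 681.

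Each of the 10 markers had a lower mean in mutants than in controls, by 11.2% for Mrc1 to 46.7% for C1qb, where 43.9% of all genes had a log2 change below 0. None of the 10 (0) passed the limma test over all genes, against 0.479% of all genes. Before adjustment, 3 of the 10 (C1qb, Ctss and Laptm5) had a limma p under 0.05, all lower in mutants. The same unadjusted threshold took in 21.4% of all genes, 8.07% lower and 13.4% higher. With voom weights on estimated reads, likewise 0 of the 10 passed and 3 had an unadjusted p under 0.05. Over the 19650 genes of that fit, 103 passed and 4521 had an unadjusted limma p under 0.05. In 5 of the 10 (C1qb, C1qc, Cx3cr1, Ctss and Laptm5) every mutant library lay below every control library, which held for 10.8% of all genes, while the opposite order held for 17.1%. The median log2 change of the 10 was -0.35, against 0.04 over all genes. The markers were chosen for the same cell type, so the 10 genes cannot be taken as 10 independent measurements. A p that misses the threshold does not show that the levels were equal.

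**Figure D1:**
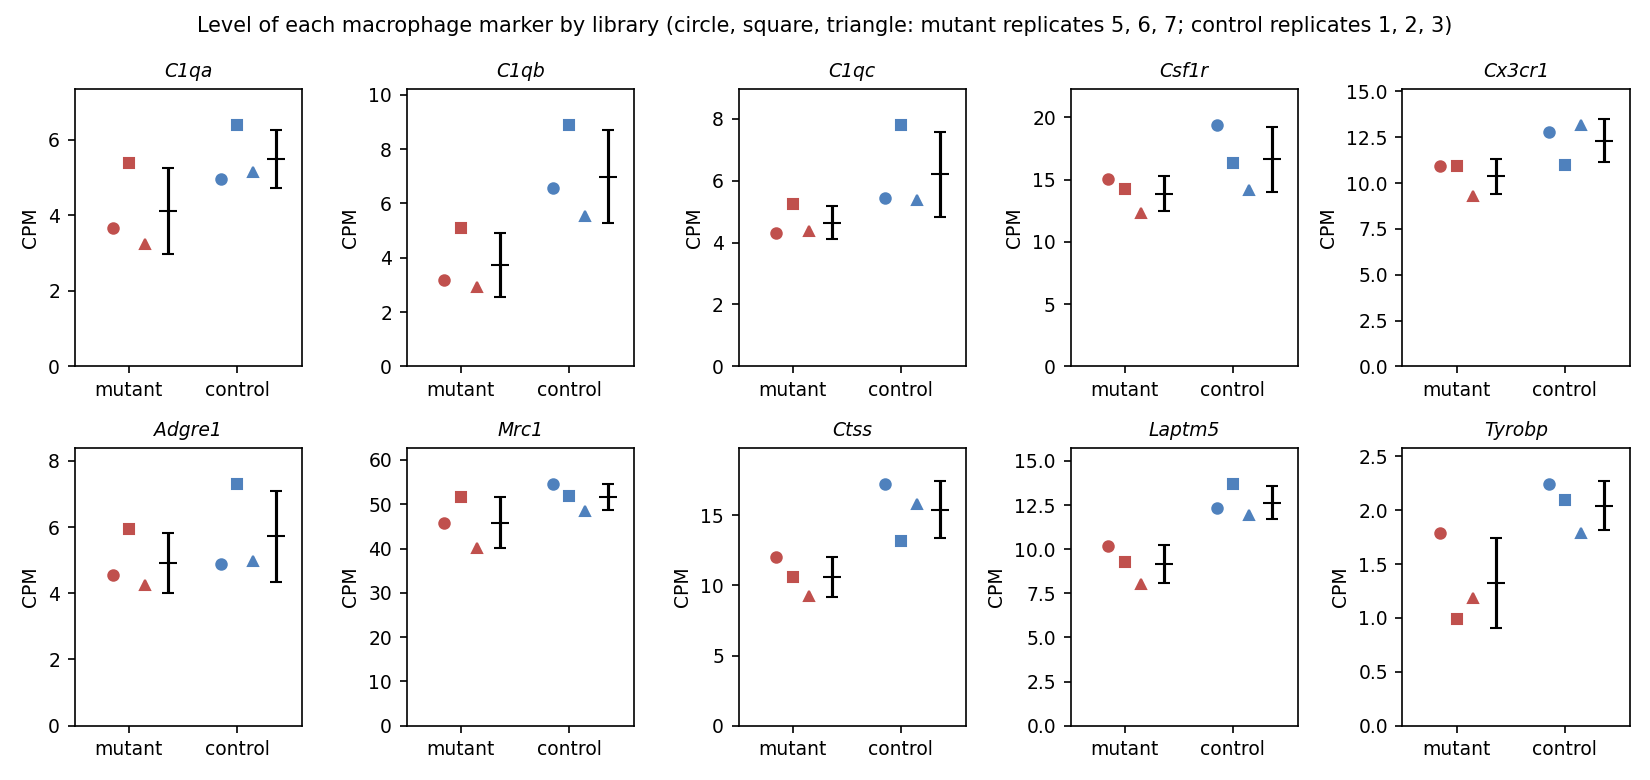
CPM (vertical axes, starting at 0) of each of the 10 markers in every library, with mutants left of controls. Symbols are libraries and the black marks to the right of them are the group mean ± SD (n = 3 each). C1qb, Ctss and Laptm5 show mutants below controls with no overlap, while Adgre1, Csf1r and Mrc1 overlap.

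The sequence before the start of 2 markers is shown because macrophage genes are known targets of the transcription factor PU.1, encoded by Spi1, whose binding letters include GAGGAA. These 2, Ctss and C1qb, were printed because their RefSeq and GENCODE starts lie within 20 bases of each other. Each run gives the 250 bases before the start on GRCm38.p6 (RefSeq), read 5′ to 3′ on the gene's strand, with GAGGAA in capitals.
Ctss, chr3:95526536-95526785, plus strand: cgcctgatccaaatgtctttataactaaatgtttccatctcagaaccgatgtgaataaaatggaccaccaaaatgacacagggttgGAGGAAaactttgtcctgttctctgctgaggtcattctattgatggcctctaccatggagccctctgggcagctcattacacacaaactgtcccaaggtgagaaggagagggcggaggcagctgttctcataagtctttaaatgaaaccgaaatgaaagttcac
C1qb, chr4:136886201-136886450, minus strand: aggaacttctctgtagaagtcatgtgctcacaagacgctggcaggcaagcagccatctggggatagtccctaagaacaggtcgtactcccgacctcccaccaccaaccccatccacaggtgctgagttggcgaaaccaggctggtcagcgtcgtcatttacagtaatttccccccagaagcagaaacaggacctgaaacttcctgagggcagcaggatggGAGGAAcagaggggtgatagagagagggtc
The letters begin 164 bases before the start in Ctss and 30 bases before it in C1qb. Of the 6 markers with a promoter in the RefSeq table (Mrc1, Ctss, Laptm5, C1qb, C1qc and Cx3cr1), 5 held GAGGAA on either strand in this window and Cx3cr1 did not, where 23.3% of all 32851 promoters of the same length held it. A match of letters is a description and not a bound site.

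The complement genes C1qa, C1qb and C1qc encode the A, B and C chains of C1q, the molecule that starts the classical complement pathway by binding to antibodies, dying cells and debris, and tissue macrophages are its main source. The 3 genes lie side by side on the minus strand of chromosome 4, within 18675 bases (136880129 to 136898803, GRCm38). C1qb measured 3.18, 5.09 and 2.92 CPM in mutant replicates 5, 6 and 7, against 6.56, 8.88 and 5.53 CPM in control replicates 1, 2 and 3. The groups did not overlap, and mutant replicate 6 came close to control replicate 3. Its mean was 3.73 ± 1.19 CPM in mutants and 6.99 ± 1.72 CPM in controls (SD, n = 3 each). On the log2(CPM + 1) scale the change was -0.76 with an SE of 0.24, and limma gave an adjusted p of 0.129. The 95% interval of that change, not adjusted for the number of genes, ran from -1.30 to -0.22. C1qb was the 1 marker of 10 in the filtered list of 2432 genes deposited by the authors, which holds 11.1% of all genes. The sources used here do not state its filter.

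C1qa measured 3.67, 5.40 and 3.25 CPM in the mutants and 4.96, 6.39 and 5.14 CPM in the controls. Mutant replicate 6 lay above 2 of the controls, so the groups overlapped (log2 change -0.36 ± 0.21, adjusted p = 0.355 in limma). C1qc measured 4.32, 5.25 and 4.37 CPM in the mutants and 5.44, 7.79 and 5.37 CPM in the controls. Here the groups were parted by 0.127 CPM, where 1 read was worth 0.066 to 0.1 CPM, with a log2 change of -0.34 ± 0.19 and an adjusted p of 0.348. In all 3 C1q genes the highest mutant library was replicate 6 and the highest control library was replicate 2. Adgre1 had the same pair of highest libraries.

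The receptors followed with smaller differences. Csf1r is the receptor for the growth factors Csf1 and Il34 (chromosome 18, 61100598 to 61132149). It measured 15.03, 14.2 and 12.3 CPM in the mutants and 19.4, 16.3 and 14.1 CPM in the controls. Control replicate 3 lay below 2 of the mutants, and the log2 change was -0.24 ± 0.15 (adjusted p = 0.398). Its exons share 873 bases with Hmgxb3 on the opposite strand, and the sources used here do not say if the counting was stranded. Whether reads of Hmgxb3 are part of the Csf1r value is therefore not known.

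Cx3cr1 is the receptor for the membrane-bound chemokine Cx3cl1 and is best known from microglia (chromosome 9, 119901616 to 120069879). It measured 10.92, 10.95 and 9.28 CPM in the mutants and 12.8, 10.98 and 13.2 CPM in the controls. The groups did not overlap, but the gap between them was 0.032 CPM, less than the value of 1 read. The log2 change was -0.23 ± 0.14 (adjusted p = 0.399). The annotated span of Cx3cr1 runs across other genes, among them Xirp1, with which it shares no exon bases. It shares 78 exon bases with Gm33858 on the opposite strand.

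Adgre1 encodes F4/80, the adhesion receptor long used to stain mouse macrophages (chromosome 17, 57358691 to 57483527). It measured 4.56, 5.93 and 4.24 CPM in the mutants and 4.88, 7.29 and 4.98 CPM in the controls. The groups overlapped, and its adjusted p of 0.657 was the highest of the 10 (log2 change -0.18 ± 0.21). Mrc1 encodes the mannose receptor CD206, which takes up glycoproteins and is also made by some endothelial cells (chromosome 2, 14229392 to 14332057). It measured 45.7, 51.7 and 40.2 CPM in the mutants and 54.5, 51.9 and 48.5 CPM in the controls. Mutant replicate 6 lay above control replicate 3 and close to control replicate 2, and the log2 change was -0.17 ± 0.11 (adjusted p = 0.411).

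Among the 5 markers without overlap, the lysosomal genes Laptm5 and Ctss had the widest gaps in CPM between the groups. Ctss encodes cathepsin S, a cysteine protease that trims the invariant chain during antigen presentation (chromosome 3, 95526786 to 95556403). It measured 12.1, 10.6 and 9.21 CPM in the mutants and 17.2, 13.2 and 15.8 CPM in the controls. All mutants lay below all controls, and the log2 change was -0.50 ± 0.16 (95% interval -0.85 to -0.14, adjusted p = 0.131 in limma). Laptm5 encodes a membrane protein of lysosomes in blood-derived cells (chromosome 4, 130913125 to 130936141). It measured 10.2, 9.28 and 8.02 CPM in the mutants and 12.3, 13.7 and 11.9 CPM in the controls. These groups were parted as well, with a log2 change of -0.43 ± 0.15 (95% interval -0.76 to -0.10, adjusted p = 0.151).

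Tyrobp encodes DAP12, the adaptor that passes signals from receptors such as Trem2 to the kinase Syk (chromosome 7, 30413760 to 30417585). It measured 1.79, 0.99 and 1.19 CPM in the mutants and 2.24, 2.10 and 1.79 CPM in the controls. Mutant replicate 5 was level with control replicate 3. The log2 change was -0.40 ± 0.20 (adjusted p = 0.294), and at this level the log2(CPM + 1) scale understates the ratio, which was 0.649 between the group means.

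**Figure D2:**
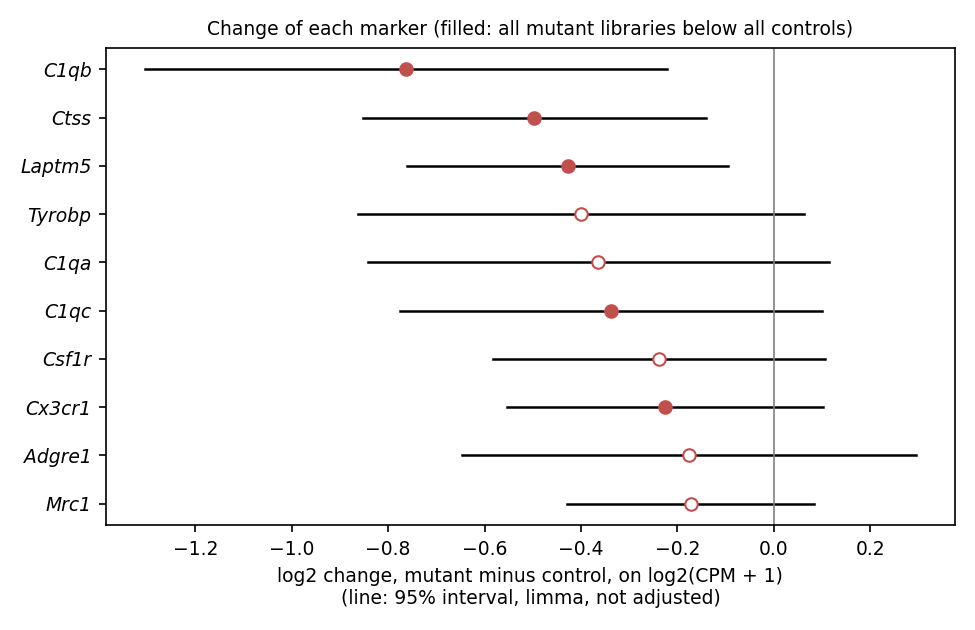
Log2 change of each marker, mutant minus control, on the log2(CPM + 1) scale, as points with the 95% interval from limma, not adjusted for the number of genes. Filled points mark the 5 markers in which all mutant libraries lay below all controls. The intervals of C1qb, Ctss and Laptm5 lie below 0 and the other 7 cross it.

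The spread between libraries was compared with that expected from counting reads alone. The SD between libraries exceeded the counting SD in 9 of the 10 markers in mutants and in 8 of the 10 in controls. For C1qb the SD between libraries was 1.19 CPM in mutants and 1.72 CPM in controls, where counting alone would give 0.527 and 0.774 CPM. For Tyrobp it was 0.418 CPM in mutants and 0.229 CPM in controls, where counting alone would give 0.314 and 0.418 CPM. The exceptions were C1qc in mutants and Laptm5 and Tyrobp in controls.

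The libraries took unequal parts in the pattern. Mutant replicate 7, the deepest library, was the lowest of all 6 in 8 of the 10 markers and lay below every control in 10 of 10. Mutant replicate 5 lay below every control in 8 of the 10 and mutant replicate 6 in 6. Among controls, replicate 3 was the lowest of its group in 6 of the 10, and the highest of all 6 libraries was control replicate 2 in 5 markers, control replicate 1 in 4 and control replicate 3 in 1. Without mutant replicate 7, 1 marker instead of 3 had a limma p under 0.05 before adjustment, while the share of all genes under it was 13.3% instead of 21.4%. In that fit the log2 change was -0.64 for C1qb, -0.41 for Ctss and -0.34 for Laptm5, with an adjusted p of 0.365, 0.377 and 0.415 in that order.

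**Figure D3:**
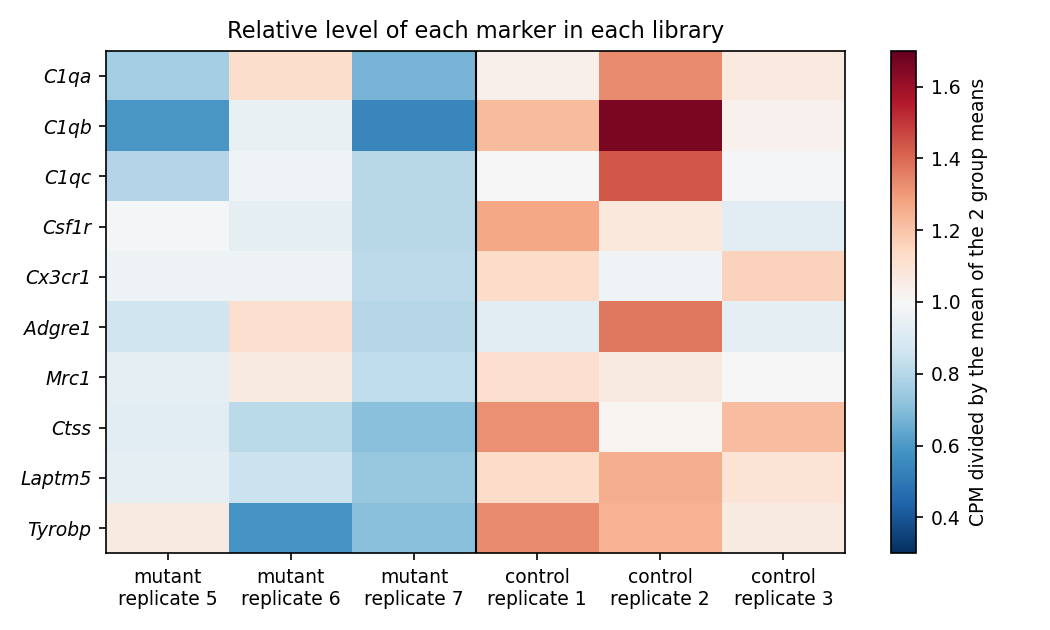
Level of each marker in each library as CPM divided by the mean of the 2 group means (colour scale, white at 1), with the 3 mutant libraries left of the black line. Mutant replicate 7 is below 1 in every marker, at 0.5441 (C1qb) to 0.824 (Mrc1), and C1qa, C1qb, C1qc, Adgre1 and Laptm5 are highest in control replicate 2.

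Levels were compared between genes per kilobase of exon. In mutants Ctss (7.82 ± 1.05 CPM per kb) and Mrc1 (7.20 ± 0.91) led, followed by C1qa (3.95 ± 1.10), C1qb (3.43 ± 1.09), Laptm5 (2.42 ± 0.29), C1qc (2.41 ± 0.27), Csf1r (2.40 ± 0.24), Cx3cr1 (2.30 ± 0.21), Tyrobp (1.99 ± 0.63) and Adgre1 (1.52 ± 0.28; SD, n = 3). In controls the order was Ctss (11.3 ± 1.5 CPM per kb), Mrc1 (8.10 ± 0.47), C1qb (6.43 ± 1.58), C1qa (5.28 ± 0.75), Laptm5 (3.34 ± 0.24), C1qc (3.21 ± 0.71), Tyrobp (3.06 ± 0.34), Csf1r (2.88 ± 0.46), Cx3cr1 (2.73 ± 0.26) and Adgre1 (1.76 ± 0.42). The 2 leading genes and the C1qa and C1qb pair stood above the rest in controls. From Laptm5 down to Cx3cr1, each gene differed from its neighbour in the order by less than the SD in both groups, apart from the step from Cx3cr1 to Tyrobp in mutants, which was below the SD of Tyrobp. By summed CPM without Mrc1, the 9 other markers reached 62.7 ± 6.94 CPM in mutants and 83.4 ± 4.85 CPM in controls, a ratio of 0.752, against 0.804 with Mrc1.

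Other genes of macrophages and myeloid cells were mostly lower in mean. Their list, like the 10 markers, was chosen with earlier results of these data known. Of 39 measured genes of a list of further macrophage and myeloid markers, 0 passed in limma, 5 were lower and 0 higher at an unadjusted p under 0.05, and 10 had all mutants below all controls. Their median log2 change was -0.24, with 30 of the 39 lower in mean, and single changes ran from -0.76 (Msr1) to 0.38 (Cd33). Over all genes, 8.07% were lower and 13.4% higher at an unadjusted limma p under 0.05, and 10.8% had all mutants below all controls. Lyz2, lysozyme, averaged 8.33 ± 0.62 CPM in mutants and 11.4 ± 1.24 CPM in controls (adjusted p = 0.174), and Coro1a, an actin regulator of leukocytes, 6.67 ± 0.93 CPM in mutants and 9.93 ± 1.9 CPM in controls (adjusted p = 0.173). Lcp1, the leukocyte plastin, was nearly level at 28.3 ± 0.43 CPM in mutants and 29.7 ± 2.54 CPM in controls (adjusted p = 0.759). Ptprc, which encodes the pan-leukocyte protein CD45 and was named after its values were seen, measured 7.90, 5.55 and 4.64 CPM in the mutants and 5.52, 5.09 and 5.14 CPM in the controls (adjusted p = 0.718).

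Markers of microglia and of resident subsets went both ways. Of 9 measured microglia-type genes, 0 passed and 0 reached an unadjusted limma p under 0.05, with a median log2 change of -0.05. P2ry12, a purine receptor of microglia named after its values were seen, measured 2.20, 1.75 and 2.78 CPM in the mutants and 2.88, 2.10 and 1.64 CPM in the controls. Slc2a5, a sugar transporter, had all mutants below all controls (1.09 ± 0.16 CPM in mutants and 1.77 ± 0.48 CPM in controls, adjusted p = 0.292). P2ry13, another purine receptor, had all mutants above all controls (3.72 ± 0.12 CPM in mutants and 2.44 ± 0.78 CPM in controls, adjusted p = 0.236). Both were named after their values were seen. Fcrls, an Fc receptor-like gene of microglia, averaged 6.59 ± 1.11 CPM in mutants and 8.65 ± 1.98 CPM in controls (adjusted p = 0.363). Of 17 listed genes of perivascular and connective tissue macrophages, only 7 were measured. Of these 7, 0 passed and 0 reached that unadjusted p, and 3 were lower in mean. Their median log2 change was 0.25. Stab1 averaged 52.0 ± 4.62 CPM in mutants and 57.5 ± 15.7 CPM in controls (adjusted p = 0.759 in limma). Cbr2, a carbonyl reductase, averaged 69.3 ± 27.7 CPM in mutants and 47.2 ± 22.9 CPM in controls, Lyve1, a hyaluronan receptor also of lymphatic vessels, 7.20 ± 1.06 CPM in mutants and 5.88 ± 0.48 CPM in controls, and F13a1, a transglutaminase subunit, 20.99 ± 1.87 CPM in mutants and 24.1 ± 4.68 CPM in controls. Ccr2, the chemokine receptor of monocytes, averaged 3.14 ± 0.67 CPM in mutants and 4.88 ± 0.24 CPM in controls (adjusted p = 0.172), and Plac8, the other measured monocyte gene, 0.88 ± 0.06 CPM in mutants and 0.77 ± 0.11 CPM in controls (adjusted p = 0.803), so 0 of 2 passed and 1 reached an unadjusted p below 0.05.

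The partners of the 10 markers were described by role. The ligand Csf1 averaged 16.9 ± 0.64 CPM in mutants and 19.7 ± 3.24 CPM in controls (adjusted p = 0.451), and Cx3cl1, the ligand of Cx3cr1, 11.2 ± 1.07 CPM in mutants and 9.54 ± 2.74 CPM in controls (adjusted p = 0.519). Among the 6 measured ligands and chemokines, 0 passed and 0 reached an unadjusted limma p under 0.05. Of 13 transcription factors of the myeloid lineage, 0 passed and 1 reached that unadjusted p, Myb, a regulator of blood progenitors and of ciliated epithelium, at 162.0 ± 30.8 CPM in mutants and 85.2 ± 21.8 CPM in controls (adjusted p = 0.0687). Spi1, which encodes PU.1 and was named after its values were seen, measured 1.79, 3.65 and 1.79 CPM in the mutants and 2.80, 3.69 and 2.96 CPM in the controls (adjusted p = 0.487).

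Complement genes other than C1q leaned the other way in mean, with 2 of 14 lower and a median log2 change of 0.12. None passed in limma, and Cd55, which protects cells from complement, was the 1 at an unadjusted p under 0.05, at 42.7 ± 15.1 CPM in mutants and 25.9 ± 4.38 CPM in controls (adjusted p = 0.15). Of 13 genes of signalling through ITAM adaptors such as Tyrobp, 0 passed and 1 reached that unadjusted p, with Syk at 10.4 ± 1.26 CPM in mutants and 9.89 ± 0.87 CPM in controls and a summed level of 60.5 to 62.9 CPM in mutants against 60.6 to 63.5 CPM in controls.

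Lysosomal genes, which every cell uses, were lower in mean in 17 of 20 cases. Of these 20 measured cathepsin and lysosome genes, 0 passed, 9 were lower and 1 higher at an unadjusted limma p under 0.05, and 8 had all mutants below all controls (median log2 change -0.26). The shares of all genes were 8.07% lower and 13.4% higher at that p, and 10.8% with all mutants below all controls. Ctsb, cathepsin B, averaged 106.7 ± 8.0 CPM in mutants and 129.0 ± 9.77 CPM in controls (adjusted p = 0.157), and Laptm4a, a relative of Laptm5, 140.6 ± 8.54 CPM in mutants and 181.8 ± 24.6 CPM in controls (adjusted p = 0.123). Of 11 genes of the clearance of dying cells, 0 passed and 0 reached the unadjusted p, with Axl, a receptor for dying cells, at 83.2 ± 7.98 CPM in mutants and 102.8 ± 17.4 CPM in controls. Of 4 relatives of Mrc1 and Adgre1, 0 passed and 0 reached it, with Mrc2 at 103.5 ± 15.8 CPM in mutants and 122.3 ± 22.2 CPM in controls.

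Markers of other cell types were set beside these values. All 10 measured erythroid genes had every mutant library below every control, with a summed level of 793.9 to 1390 CPM in mutants and 1635 to 4827 CPM in controls and a median log2 change of -1.24, although 0 passed in limma and 9 were lower at an unadjusted p under 0.05. None of these 10 was at 0 in any library. Among all genes, 10.8% had every mutant library below every control, and 8.07% were lower at an unadjusted limma p under 0.05. By library, the erythroid sum was 793.9, 1390 and 1338 CPM in mutant replicates 5, 6 and 7 and 1635, 2838 and 4827 CPM in control replicates 1, 2 and 3. The sum of the 10 markers was 111.4, 119.4 and 95 CPM in the mutants and 140.2, 138.5 and 126.3 CPM in the controls. Replicate 6 was the highest mutant in both sums, and replicate 3 was the highest control in the erythroid sum and the lowest in the marker sum. Endothelial genes overlapped, at 308.7 to 424.7 CPM summed in mutants and 266.7 to 413.8 CPM in controls, with 0 of 12 at an unadjusted p under 0.05. Of 15 skeletal muscle genes, 8 fell over all genes tested (Myod1, Myog, Pax7, Acta1, Tnni1, Tnnc1, Ryr1 and Des) and none rose, with a summed level of 4815 to 5949 CPM in mutants against 7206 to 15111 CPM in controls. Of 10 epithelial genes, 0 passed and 2 were higher at an unadjusted p under 0.05, and of 9 mesenchymal genes, 0 passed and 2 were lower. Of 9 genes of Schwann cells and neurons, 0 passed and 0 reached it. The muscle calls were lost where 0 genes passed, which was the case with no trend in the prior variance and without control replicate 1 or 3 or mutant replicate 5 or 6. Without mutant replicate 7 only 2 of all genes passed, so at most 2 of the 8 muscle calls can have stood. The part of blood content or tissue makeup in the marker values was not tested.

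**Figure D4:**
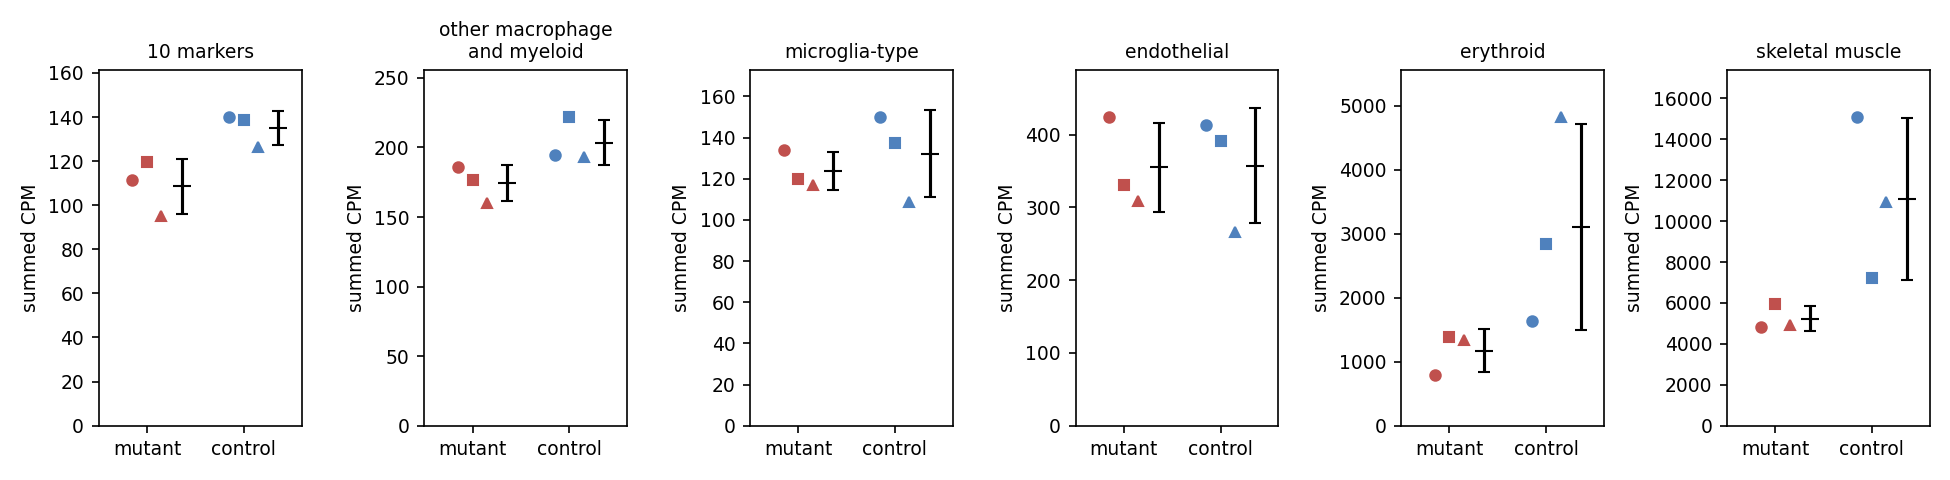
Summed CPM (vertical axes, starting at 0) per library over the 10 markers and over 5 other lists, with mutants left of controls. Circles, squares and triangles are replicates 5, 6 and 7 of the mutants and 1, 2 and 3 of the controls, and black marks are the group mean ± SD (n = 3 each). The 10 markers sit at 95 to 119.4 CPM in mutants, below all 3 controls, as do the other macrophage and myeloid, the erythroid and the skeletal muscle sums, while endothelial and microglia-type sums overlap.

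Genes with the most similar profile were sought over the 6 libraries. The measure was the root mean square difference between the centred log2(CPM + 1) profile of a gene and the mean centred profile of the 10 markers, among 13431 other genes with a mean of at least 5 CPM. The closest were Znrd2 (0.03 log2 units), Nfic (0.04), Abhd12 (0.05), Gpc4 (0.05) and Sox12 (0.05). The markers themselves lay at 0.07 (Laptm5) to 0.27 (C1qb) from their own mean, so the 5 closest genes were nearer to the mean profile than any marker was. None of these 5 genes passed in limma (adjusted p = 0.0708 to 0.206). They were taken from the whole table as the nearest of many.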

How the data were processed

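Per the submitters' processing notes, reads were aligned with STAR to mm10. The sources used here give no version, counting step, strand setting or annotation. RNA-seq of 3 mutant and 3 control libraries was deposited by the authors as CPM. The values carry an added constant of 0.0001, which was taken off. In these tables each library is a row, taken to its sample by its title, and 0 value columns went unused. From the steps between low values the depth was estimated at 10018627 to 15089314 reads. Of the low values, 63.0 to 67.9% were whole reads within 0.02 of a read, so counts were not recovered.

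Mutant was compared with control on log2(CPM + 1) with limma 3.58.1 (R 4.3.3), two-sided, with an intensity trend, no filter on low values and Benjamini-Hochberg adjustment over all 21938 genes. Fold changes on this scale understate low genes. The test was checked on simulated data in which genes varied independently with a common spread. Changes were set only in genes above a minimum level, so the check does not cover the rarest markers. The set changes were all larger than that of any marker, so changes of the markers' size were not covered either. The markers and the 23 other gene lists were chosen with earlier results of these data known. Genes named beside the 10 markers are up to 4 with the highest mean CPM of each list, any list gene past 0.05 and the 5 with the nearest profile. Ptprc, Spi1, P2ry12, P2ry13, Slc2a5, Msr1 and Cd33 fall outside this rule. Positions and exon lengths come from GENCODE vM21 (GRCm38). Alternatives changed the pseudocount, a level filter, scaling, the prior variance, voom weights, the threshold and the libraries used. Counting errors cover counting alone.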

Additional observations from a re-analysis of the deposited data

How the results depend on the processing

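In each of the 13 alternatives 0 of the 10 markers passed, and 1 to 4 had an unadjusted p below 0.05 in limma. Every marker kept a negative log2 change in all 120 refits of single markers. The lowest adjusted p in any of them was 0.0871, for Ctss, whose range was 0.0871 to 0.377. That of C1qb was 0.12 to 0.365 and that of Laptm5 0.133 to 0.415. The log2 change nearest to 0 was -0.02, for Adgre1. The median log2 change of the 10 lay between -0.41 and -0.27, and the ratio of summed CPM between 0.764 (without mutant replicate 6) and 0.855 (without mutant replicate 7). The count over all genes was less stable: 105 as given, 0 with no trend in the prior variance, 174 with a robust prior variance, 999 at a threshold of 0.1, and 0 to 452 with 1 library left out (452 without control replicate 2, 2 without mutant replicate 7, and 0 without each of the others). Where 0 genes passed, 3806 to 4516 had an unadjusted limma p under 0.05. The cause was not tested. No paired analysis was possible because the groups share no replicate numbers. Depth limits Tyrobp most, at 13 to 28 reads per library.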

Other observations

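Lymphoid, neutrophil and dendritic cell genes had few reads, apart from Zbtb46. Of 4 measured lymphoid genes, 0 passed in limma and 0 reached an unadjusted p below 0.05, with a summed level of 1.3 to 4.9 CPM in mutants and 2.0 to 2.6 CPM in controls. Cd8a, a chain of a T cell co-receptor, was at 0.98, 0 and 0 CPM in the mutants and at 0.16, 0.30 and 0.08 CPM in the controls. Of 4 measured neutrophil genes, 0 passed and 0 reached that p, and Ltf, lactoferrin, which glands also make, led at 2.47 ± 0.70 CPM in mutants and 1.47 ± 1.05 CPM in controls (SD, n = 3 each). Of 6 genes of dendritic cells, 0 passed and 0 reached it, with 3 of the 6 at a log2 change below 0. Zbtb46, a factor of dendritic cells and endothelium, averaged 10.3 ± 2.0 CPM in mutants and 10.1 ± 1.2 CPM in controls, and Cd74, the invariant chain, 2.22 ± 0.25 CPM in mutants and 3.49 ± 0.95 CPM in controls (adjusted p = 0.258).

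Mast cell genes did not move as 1 group. The proteases Cpa3 (3.00 ± 1.34 CPM in mutants and 5.13 ± 1.83 CPM in controls) and Cma1 (2.56 ± 1.16 CPM in mutants and 3.61 ± 1.19 CPM in controls) had lower means in mutants, whereas Kit (59.4 ± 12.01 CPM in mutants and 41.2 ± 10.9 CPM in controls), a receptor also found outside mast cells, and Hdc, which makes histamine (7.55 ± 1.22 CPM in mutants and 4.27 ± 1.25 CPM in controls), had higher ones. None of the 6 measured genes passed in limma, and 2, Kit and Hdc, had an unadjusted p below 0.05. Ppbp, a chemokine of platelets, measured 0.24, 0.84 and 0.20 CPM in the mutants and 2.64, 6.79 and 1.25 CPM in the controls (adjusted p = 0.104), while Itga2b, the platelet integrin, measured 4.89, 4.41 and 5.04 CPM in the mutants and 3.44, 4.39 and 3.35 CPM in the controls (adjusted p = 0.374). Those 2 were the measured platelet genes, 0 of which passed and 1 of which, Ppbp, reached that p.

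Osteoclasts share their progenitors with macrophages. Of 6 measured osteoclast genes, 0 passed in limma, and Tnfrsf11a, the receptor for the osteoclast signal RANKL, was the 1 at an unadjusted p below 0.05, at 7.19 ± 0.61 CPM in mutants and 5.21 ± 0.78 CPM in controls (adjusted p = 0.218). Ctsk, the bone-degrading cathepsin K, averaged 15.6 ± 1.44 CPM in mutants and 17.6 ± 2.32 CPM in controls.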
